A study of Mus musculus with 6 samples.

Results

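The enzymes that turn lanosterol, the first sterol made by the cell, into cholesterol were examined after knockdown of Sox9 in mouse primary renal tubular epithelial cells (TECs). The members were 8 genes picked by name, Cyp51, Tm7sf2, Msmo1, Nsdhl, Hsd17b7, Ebp, Sc5d and Dhcr7, out of 30315 genes in the table. All 8 were listed, and all 8 had a mean of at least 1 FPKM over the libraries, the minimum for the fit (12009 genes). FPKM is a read count scaled by exon length and by library size. The length here counts all annotated exons of a gene, used or not, so levels compare only roughly between genes. The 8 were chosen because genes of cholesterol synthesis were known to be higher after the knockdown in these same libraries. Their difference between the groups is therefore given as a description with no test.

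RNA-Seq was done on 6 libraries of TECs from the kidneys of C57BL/6 mice, 3 transfected with siSox9, a small interfering RNA (siRNA) against Sox9, and 3 with siNC, the negative control siRNA. Cells at about 50% confluence were transfected 12 h before hypoxia/reoxygenation (H/R), a culture model of ischemia-reperfusion injury. All 6 libraries, controls included, received H/R, which was 6 h without glucose at 1.0% oxygen and then 18 h in complete medium under normal conditions. A single siRNA against Sox9 was used, and nothing in the labels says whether the replicates came from separate animals or cultures, so the spread between them may be technical.

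Cholesterol is made in the endoplasmic reticulum from acetyl-CoA through mevalonate, squalene and lanosterol. From lanosterol on, the enzymes strip methyl groups from the sterol ring and move and remove its double bonds. The genes are classic targets of SREBP2, a transcription factor that is released from the endoplasmic reticulum when its sterol content is low and that acts at promoters together with NF-Y, which binds CCAAT boxes, and with SP1, which binds GC boxes. Kidney tubule cells both make cholesterol and take it up.

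Sox9, the target of the siRNA, had 8.93, 8.61 and 9.07 FPKM in the 3 siSox9 libraries and 25.7, 26.5 and 25.6 FPKM in the 3 siNC libraries, so that 34.2% of the control level remained. Library totals recovered from the FPKM values ranged from 23893197 to 25725743 reads. Of the 12009 genes tested, 12.8% passed the threshold as higher and 17.6% as lower with siSox9 (limma, Benjamini-Hochberg adjusted p under 0.05). These were 1532 and 2118 genes, and with log2 values set to a common median per library the split became 1959 higher and 1765 lower. The defining markers of kidney epithelium were abundant, with 129.2 to 130.0 FPKM of Cdh16 with siSox9 and 98.1 to 103.8 FPKM with siNC, but most of those of the proximal tubule were near 0. Slc34a1 was at 0 in all 3 siNC libraries and in 1 siSox9 library, Slc5a2 and Hnf4a were at 0 in some libraries, and only Lrp2 of the 6 proximal tubule markers listed had a mean of at least 1 FPKM. All 6 markers of the loop, distal tubule and collecting duct were under 1 FPKM. In bulk RNA, fewer cells of a type and less RNA per cell cannot be told apart.

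Promoters of 4 members are shown first, to set Nsdhl, the member with the widest separation upward, beside Ebp, Sc5d and Dhcr7, which were lower on average. Each is the 250 bases before the RefSeq start site, in GRCm38.p6, the build that the gene positions of the table also follow, written 5′ to 3′ along the gene's strand. Capitals mark CCAAT or, on the other strand, ATTGG. Nsdhl is at chrX:72918271-72918520, plus strand, Ebp at chrX:8193513-8193762, minus strand, Sc5d at chr9:42264301-42264550, minus strand and Dhcr7 at chr7:143822917-143823166, plus strand.
Nsdhl: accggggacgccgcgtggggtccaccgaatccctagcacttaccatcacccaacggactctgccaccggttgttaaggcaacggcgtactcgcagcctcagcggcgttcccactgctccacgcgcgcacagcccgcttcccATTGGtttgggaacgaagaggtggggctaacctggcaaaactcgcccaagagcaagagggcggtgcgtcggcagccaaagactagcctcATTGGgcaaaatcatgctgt
Ebp: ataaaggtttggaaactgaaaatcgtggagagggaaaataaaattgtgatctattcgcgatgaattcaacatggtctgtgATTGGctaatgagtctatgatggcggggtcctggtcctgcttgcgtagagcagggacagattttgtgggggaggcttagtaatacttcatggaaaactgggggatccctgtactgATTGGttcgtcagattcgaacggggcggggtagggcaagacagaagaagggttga
Sc5d: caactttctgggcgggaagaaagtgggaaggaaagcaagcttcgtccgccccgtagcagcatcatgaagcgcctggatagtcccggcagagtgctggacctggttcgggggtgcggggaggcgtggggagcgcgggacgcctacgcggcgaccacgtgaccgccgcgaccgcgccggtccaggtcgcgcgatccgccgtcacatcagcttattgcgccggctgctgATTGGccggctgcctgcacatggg
Dhcr7: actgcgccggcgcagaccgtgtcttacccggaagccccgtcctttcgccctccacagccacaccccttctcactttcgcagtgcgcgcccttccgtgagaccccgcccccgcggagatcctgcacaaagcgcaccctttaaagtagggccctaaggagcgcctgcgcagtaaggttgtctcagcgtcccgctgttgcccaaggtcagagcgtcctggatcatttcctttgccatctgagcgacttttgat

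A CCAAT box on either strand was found in this window of 7 of the 8 members, against 33.8% of the 32851 promoter windows of RefSeq genes. Msmo1 and Hsd17b7 held 3 of them, Nsdhl and Ebp 2, and Cyp51, Tm7sf2 and Sc5d 1. Dhcr7 held 0 in the window at its start site nearest to the deposited gene start, out of 3 start sites. The third start site, at base 143830214 of chromosome 7, has 2. A GC box (GGGCGG or CCGCCC) was found in all 8 members, against 32.7% of all windows. The windows of the members were 47.2% to 72.0% G and C, with Ebp the lowest and Msmo1 the highest. The 32851 windows were not matched to the members in G and C content or in expression, so no enrichment is read from the shares. The letters of a common sterol regulatory element, TCACNCCAC or GTGGNGTGA, were in 0 of the 8 windows and in 1.05% of all windows. Only this spelling was searched, so sterol regulatory elements spelled otherwise would have been missed and their absence is not shown. The E-box CACGTG was in Hsd17b7 and Sc5d, with 6.02% of all windows. Of the SOX core motifs, ACAAAG or CTTTGT was in Cyp51, Hsd17b7 and Dhcr7, with 16.5% of all windows, and ACAATG or CATTGT was in 0 members, with 10.7% of all windows. In Cyp51, Tm7sf2, Msmo1, Hsd17b7 and Dhcr7 the deposited gene start lies before the RefSeq start, by 49, 523, 214, 36 and 22 bases, so the window holds part of the gene as deposited. The window of Tm7sf2 lies wholly inside the deposited gene, and its matches are counted all the same. Matches of different motifs overlapped 0 times in the members. CCAAT boxes were thus present both in genes that were higher and in genes that were lower with siSox9, and these matches are letters in a window and not measured binding sites.

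In the 3 siNC libraries the members formed a high pair and a middle group, with Tm7sf2 and Dhcr7 each apart below. Msmo1 (21.98 ± 0.900 FPKM, SD, n = 3) and Cyp51 (21.6 ± 0.630 FPKM) were highest, and their ranges overlapped. Nsdhl (14.6 ± 0.672 FPKM), Sc5d (14.4 ± 0.293 FPKM), Hsd17b7 (13.8 ± 0.523 FPKM) and Ebp (13.5 ± 0.295 FPKM) followed, and each overlapped with its neighbour in this order. Tm7sf2 (5.38 ± 0.205 FPKM) and Dhcr7 (3.59 ± 0.207 FPKM) were lowest and overlapped with no neighbour. Msmo1 was above 80.2% of the genes tested and Dhcr7 above 27.6%. With siSox9 the order of the middle group was Nsdhl, Hsd17b7, Sc5d and Ebp, and no neighbours among these 4 overlapped any more.

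The first 5 enzymes of the sequence were higher with siSox9 and the last 3 were lower on average. Cyp51, Tm7sf2, Msmo1, Nsdhl and Hsd17b7 were higher in every siSox9 library than in any siNC library, Ebp and Sc5d were lower in every one, and Dhcr7 overlapped. Over all genes tested, 20.2% were higher and 26.1% lower without overlap (46.3% in either direction). In the fit over all genes, 5 of the 8 were past the threshold as higher (background 12.8%) and 1, Ebp, as lower (background 17.6%), with a background of 30.4% in either direction. Since the members were chosen with this contrast in view, nothing is read from these counts. The median log2 fold change of the 8 was 0.22, against -0.01 over all genes tested.

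**Figure D1:**
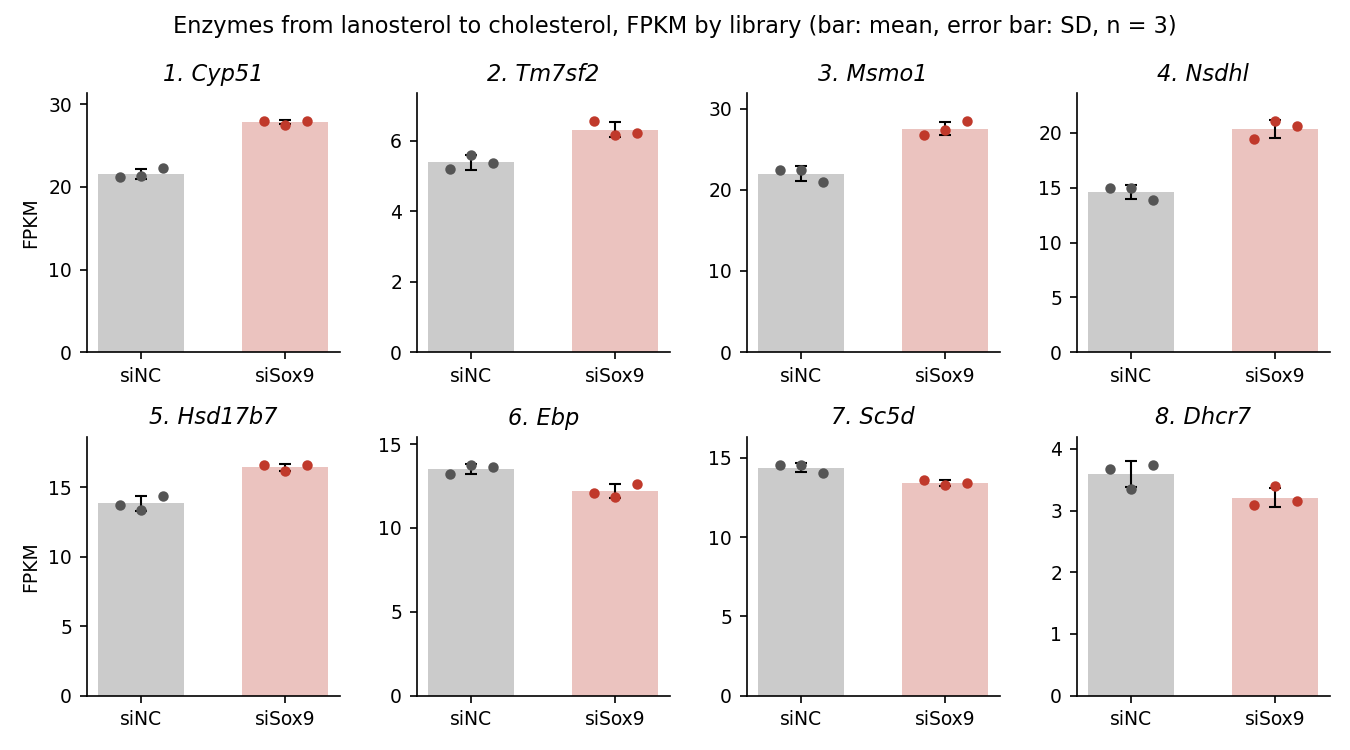
FPKM of the 8 enzymes in pathway order, with a point for each library in order of replicate number, a bar for the mean and an error bar for the SD of 3 libraries. The siSox9 points lie above the siNC points in the panels of Cyp51 to Hsd17b7 and below them in those of Ebp and Sc5d, and overlap in that of Dhcr7.

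Cyp51 (ENSMUSG00000001467, chromosome 5 from 4081145 to 4104746) encodes lanosterol demethylase, the cytochrome P450 that opens this part of the pathway and is the target of azole drugs in fungi. It had 28.0, 27.5 and 28.0 FPKM with siSox9 and 21.2, 21.3 and 22.3 FPKM with siNC. The siSox9 libraries were all above the siNC libraries, at 128.8% of the control mean. On the log2(FPKM + 1) scale the difference was 0.35 (standard error 0.03). It rested on 2950 to 3175 reads with siSox9 and 2269 to 2450 with siNC. Of its exons, 166 bases overlap Akap9 on the other strand.

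Tm7sf2 (ENSMUSG00000024799, chromosome 19 from 6062821 to 6068373) encodes the sterol reductase that removes the double bond left by Cyp51. It had 6.55, 6.17 and 6.21 FPKM with siSox9 and 5.19, 5.60 and 5.36 FPKM with siNC. All siSox9 values were above all siNC values, with a mean of 117.2% of the control and a log2 difference of 0.20 (standard error 0.04). The gene shares 532 exon bases with Vps51 on the same strand and 9.87% of the 50-base stretches of its transcripts occur in that gene, so its level is less certain, and its FPKM did not resolve into whole reads.

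Lbr, the lamin B receptor, is a nuclear envelope protein with the same sterol reductase activity and was not among the members. It had 6.43, 5.85 and 6.19 FPKM with siSox9 and 8.03, 7.65 and 8.39 FPKM with siNC, and fell by 0.33 on the log2 scale (standard error 0.05, limma's adjusted p = 0.00256). The FPKM of Tm7sf2 and Lbr added up to 12.5 ± 0.485 with siSox9 and 13.4 ± 0.299 with siNC (SD, n = 3). In FPKM, which compares only roughly between genes, Tm7sf2 was thus level with Lbr after siSox9. The ratio was 1.00 to 1.06 in each siSox9 library and 0.639 to 0.731 with siNC. Of the exon bases of Lbr, 509 overlap other genes.

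The next 3 enzymes work in turn to remove the remaining pair of methyl groups next to the sterol hydroxyl group. Msmo1 (ENSMUSG00000031604, chromosome 8 from 64718139 to 64733792) encodes the methylsterol monooxygenase that oxidizes them. It had 26.8, 27.4 and 28.5 FPKM with siSox9 and 22.5, 22.5 and 20.9 FPKM with siNC, without overlap, a log2 difference of 0.31 (standard error 0.04). It had the most reads of the members, 4177 to 4277 with siSox9 and 3197 to 3433 with siNC.

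Nsdhl (ENSMUSG00000031349, chromosome X from 72918557 to 72958514) encodes the decarboxylating dehydrogenase that takes off the oxidized carbon, and its loss causes the bare patches and striated mutants in mice. It had 19.5, 21.1 and 20.6 FPKM with siSox9 and 15.0, 15.0 and 13.8 FPKM with siNC. This was the widest separation among the 8, at 139.4% of the control mean and a log2 difference of 0.45 (standard error 0.05). The reads were 1403 to 1526 against 981 to 1063. No exon of Nsdhl overlaps another gene and 0% of its 50-base stretches occur elsewhere.

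Hsd17b7 (ENSMUSG00000026675, chromosome 1 from 169949535 to 169969241) encodes the ketoreductase that restores the hydroxyl group, an enzyme that also acts on estrone. It had 16.5, 16.1 and 16.6 FPKM with siSox9 and 13.7, 13.4 and 14.4 FPKM with siNC. The siSox9 libraries were again all above the control, with a mean of 118.9% of the control and a log2 difference of 0.23 (standard error 0.04).

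Ebp (ENSMUSG00000031168, chromosome X from 8185329 to 8193512) encodes the isomerase that shifts the ring double bond, known also as the emopamil binding protein. It had 12.1, 11.8 and 12.6 FPKM with siSox9 and 13.2, 13.8 and 13.6 FPKM with siNC, all 3 below the control libraries. Its mean was 90.1% of the control, a log2 difference of -0.14 (standard error 0.04). Ebp had 694 to 719 reads with siSox9 and 757 to 782 with siNC. The call of Ebp was lost with TPM, with median-centred values, with limma voom on recovered reads, and without siSox9 replicate 1, siSox9 replicate 2, siNC replicate 2 or siNC replicate 3.

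Sc5d (ENSMUSG00000032018, chromosome 9 from 42251595 to 42264256) encodes the desaturase that puts a new double bond into the ring. It had 13.6, 13.3 and 13.4 FPKM with siSox9 and 14.5, 14.6 and 14.0 FPKM with siNC. The groups did not overlap, but the distance was small, with a log2 difference of -0.09 (standard error 0.03) that did not pass the threshold.

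Dhcr7 (ENSMUSG00000058454, chromosome 7 from 143823145 to 143848410) encodes the reductase that turns provitamin D sterol into cholesterol and is the gene of Smith-Lemli-Opitz syndrome. It had 3.09, 3.39 and 3.15 FPKM with siSox9 and 3.67, 3.35 and 3.74 FPKM with siNC. The groups overlapped, since siSox9 replicate 2 was above siNC replicate 2, and the log2 difference was -0.12 (standard error 0.05). Dhcr7 had the fewest reads of the 7 members whose reads could be recovered, 438 to 501 with siSox9 and 471 to 541 with siNC.

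The ratio between enzymes within a library does not depend on how libraries are scaled to each other. Cyp51 over Dhcr7, the first enzyme over the last, was 9.05, 8.12 and 8.87 with siSox9 and 5.78, 6.35 and 5.97 with siNC. Nsdhl over Ebp was 1.61 to 1.78 with siSox9 and 1.02 to 1.14 with siNC. Msmo1 over Sc5d was 1.97 to 2.12 against 1.49 to 1.55. In each of these 3 ratios the siSox9 libraries were all above the siNC libraries. Each divides a member that was higher with siSox9 by one that was lower on average. The separation thus restates the values above and is no further support for them. The geometric mean of the first 5 enzymes over that of the last 3 was 2.16 ± 0.0171 with siSox9 and 1.57 ± 0.0286 with siNC (SD, n = 3). This division into 5 and 3 was made after the values were seen. Summed over the 8 genes, the level was 126.1 to 129.0 FPKM with siSox9 and 108.3 to 109.4 FPKM with siNC.

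**Figure D2:**
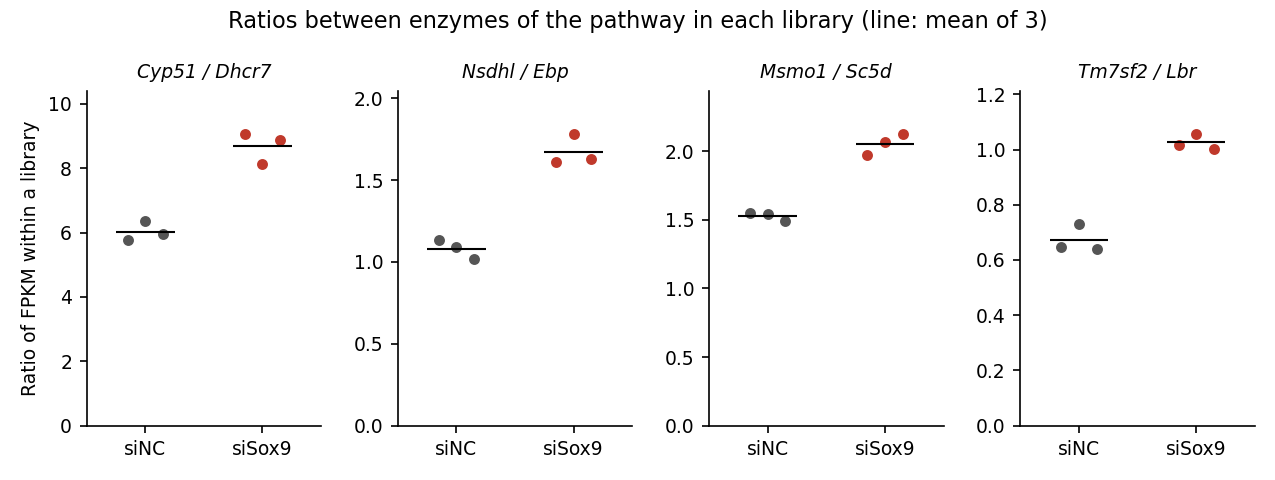
Ratio of the FPKM of 2 enzymes within a library, with a point for each library in order of replicate number and a line for the mean of 3. In every panel the siSox9 points lie above the siNC points, from 1.34-fold by the means for Msmo1 over Sc5d to 1.55-fold for Nsdhl over Ebp. Each ratio divides a gene that was higher with siSox9 by one that was lower on average, so this restates the single values.

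Among 7 other partners of these steps that were tested, Lbr included, 3 fell and the other 4 did not pass. The median of the 7 was -0.0014 on the log2 scale. Over all genes tested, 12.8% rose and 17.6% fell. The falls were those of Lbr, of Cyb5b (57.9 ± 0.635 FPKM with siSox9 and 68.1 ± 1.48 with siNC, SD, n = 3, a log2 fold change of -0.23, limma's adjusted p = 0.0015) and of Cyb5a (27.4 ± 0.864 and 31.0 ± 1.66 FPKM, -0.17, limma's adjusted p = 0.0275). Cyb5a did not pass without filter, with median-centred values, or without any of the siSox9 replicates or siNC replicates 2 or 3 (limma's adjusted p up to 0.090), and it had no recovered reads for limma voom, while Cyb5b passed under every alternative. These cytochromes b5 pass electrons to the oxygenases and desaturases of the pathway. Por, the reductase that feeds electrons to Cyp51, had 21.6 ± 1.94 FPKM with siSox9 and 21.3 ± 0.969 with siNC (limma's adjusted p = 0.838). Erg28, which tethers the demethylation enzymes, had 9.69 ± 0.0327 and 9.19 ± 0.340 FPKM (limma's adjusted p = 0.187). Ebpl, a relative of Ebp, had 0.744 to 0.820 FPKM with siSox9 and 0.854 to 0.965 with siNC, under the minimum for the fit.

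Upstream of lanosterol, 7 of 10 enzymes rose (12.8% over all genes tested) and the other 3 did not pass. The median of their log2 fold changes was 0.32. The highest of these was that of Fdft1, squalene synthase, which commits the pathway to sterols and had 23.96, 23.7 and 24.3 FPKM with siSox9 and 15.8, 17.7 and 17.1 FPKM with siNC (log2 fold change 0.49, standard error 0.04, limma's adjusted p = 0.000415). Lss, which makes lanosterol and so hands over to Cyp51, had 3.68 ± 0.186 FPKM with siSox9 and 3.32 ± 0.259 with siNC and did not pass (limma's adjusted p = 0.177), although it passed with limma voom on recovered reads (adjusted p = 0.0377). Acat2, at the start of the pathway, had 10.7 ± 0.895 and 10.9 ± 0.277 FPKM (limma's adjusted p = 0.783). Pmvk, the phosphomevalonate kinase, did not pass either, with 5.50 ± 0.432 and 4.73 ± 0.497 FPKM (limma's adjusted p = 0.117). These upstream enzymes belong to the same known pattern that led to the choice of the members and are not independent of it.

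**Figure D3:**
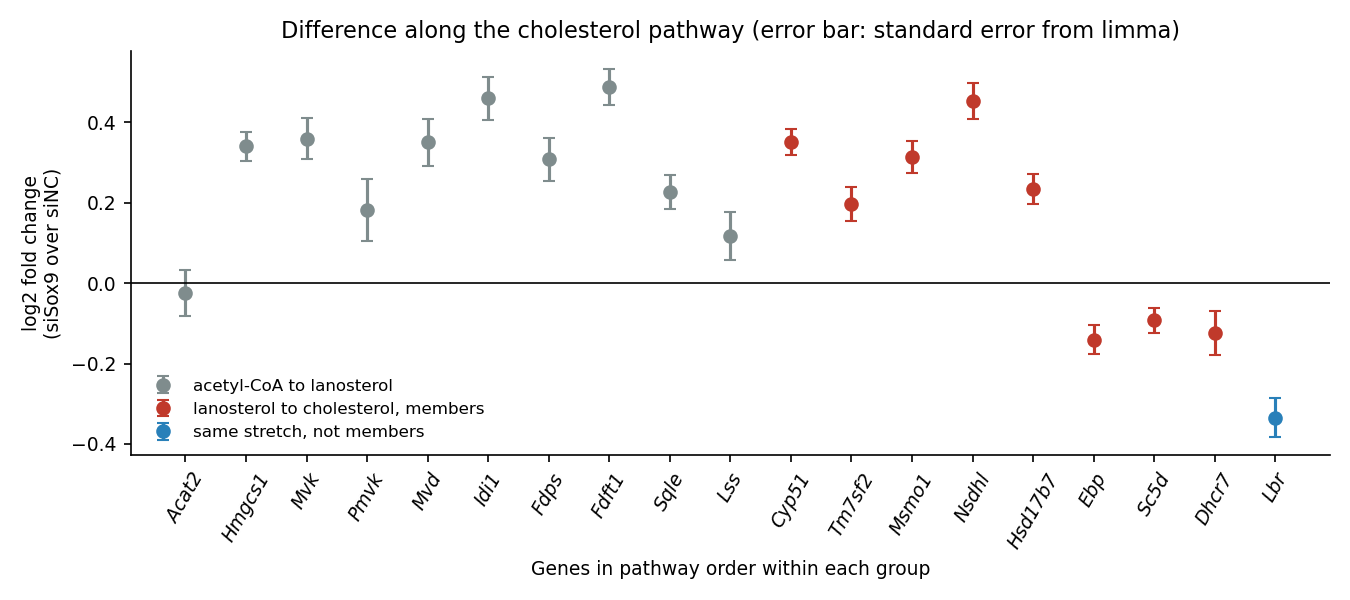
log2 fold change of siSox9 over siNC on log2(FPKM + 1), with the standard error from limma, for 10 enzymes up to lanosterol, the 8 members and, apart at the right, Lbr. Values lie between 0.20 and 0.45 from Cyp51 to Hsd17b7 and between -0.14 and -0.09 from Ebp to Dhcr7.

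Among 12 genes of the SREBP pathway and of sterol transfer, 3 rose and 1 fell (12.8% and 17.6% over all genes tested). With 30.4% of all genes tested called in either direction, nothing is read from this count. Insig1, which holds SREBP in the endoplasmic reticulum and is itself an SREBP target, had 20.1, 19.2 and 19.6 FPKM with siSox9 and 12.0, 13.2 and 12.8 with siNC (log2 fold change 0.60, limma's adjusted p = 0.000167). The mRNA of Srebf2, which encodes SREBP2, had 49.9 ± 2.41 and 47.3 ± 0.768 FPKM (SD, n = 3), and its change of 0.08 on the log2 scale did not pass (limma's adjusted p = 0.199), except without siSox9 replicate 3, where it did (0.12, limma's adjusted p = 0.044). Stard4, a sterol carrier of the cytosol, rose from 5.44 ± 0.190 to 7.59 ± 0.204 FPKM with siSox9 (limma's adjusted p = 0.000502), and Npc2, which hands cholesterol to Npc1, rose from 37.1 ± 0.862 to 41.2 ± 0.692 FPKM (limma's adjusted p = 0.0115). Npc1, which carries cholesterol out of lysosomes, was the gene that fell, from 6.91 ± 0.333 FPKM to 4.83 ± 0.282 with siSox9 (log2 fold change -0.44, limma's adjusted p = 0.00115).

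Genes of sterol export, esterification and oxysterols were fewer at these levels. Of 10, 5 had a mean under 1 FPKM, and of the other 5 tested 0 rose and 2 fell by limma. The shares over all genes tested were 12.8% higher and 17.6% lower. Nr1h2, a nuclear receptor for oxysterols, was at an adjusted p of 0.050 from limma with a log2 fold change of 0.12, and passed with a minimum of 5 FPKM, with median-centred values, with limma voom on recovered reads and without siNC replicate 1 (adjusted p from 0.0134 to 0.0436). Abca1, the cholesterol exporter, had 1.26, 1.34 and 0.998 FPKM with siSox9 and 1.74, 1.64 and 1.63 with siNC (log2 fold change -0.28, limma's adjusted p = 0.0303, and from 0.0014 to 0.0949 under the alternatives). Abca1 did not pass without filter, with TPM, with quantile normalization, or without siSox9 replicate 1, siSox9 replicate 3 or any of the siNC replicates. Soat1, which esterifies cholesterol, fell from 3.24 ± 0.155 to 2.66 ± 0.0633 FPKM with siSox9 (SD, n = 3, limma's adjusted p = 0.0173). Soat1 did not pass without filter, with TPM, with quantile normalization, or without siSox9 replicate 1 or siNC replicate 2 (limma's adjusted p up to 0.0779).

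Of 9 tested genes of fatty acid synthesis and desaturation, 3 rose and 0 fell (12.8% and 17.6% over all genes tested). Their median was 0.04 on the log2 scale. With 30.4% of all genes tested called in either direction, nothing is read from the count. Acly, which makes cytosolic acetyl-CoA for both fatty acids and sterols, had the largest rise (78.8 ± 2.44 FPKM with siSox9 and 68.4 ± 0.453 with siNC, SD, n = 3, log2 fold change 0.20, limma's adjusted p = 0.00353). Fasn and Me1, which build fatty acids and supply NADPH, rose by a log2 fold change of 0.17 each (limma's adjusted p = 0.00903 and 0.00487). Elovl6, an elongase, had 3.75 ± 0.0907 and 4.36 ± 0.470 FPKM and did not pass (limma's adjusted p = 0.0982), except without siNC replicate 2 (adjusted p = 0.0242).

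**Figure D4:**
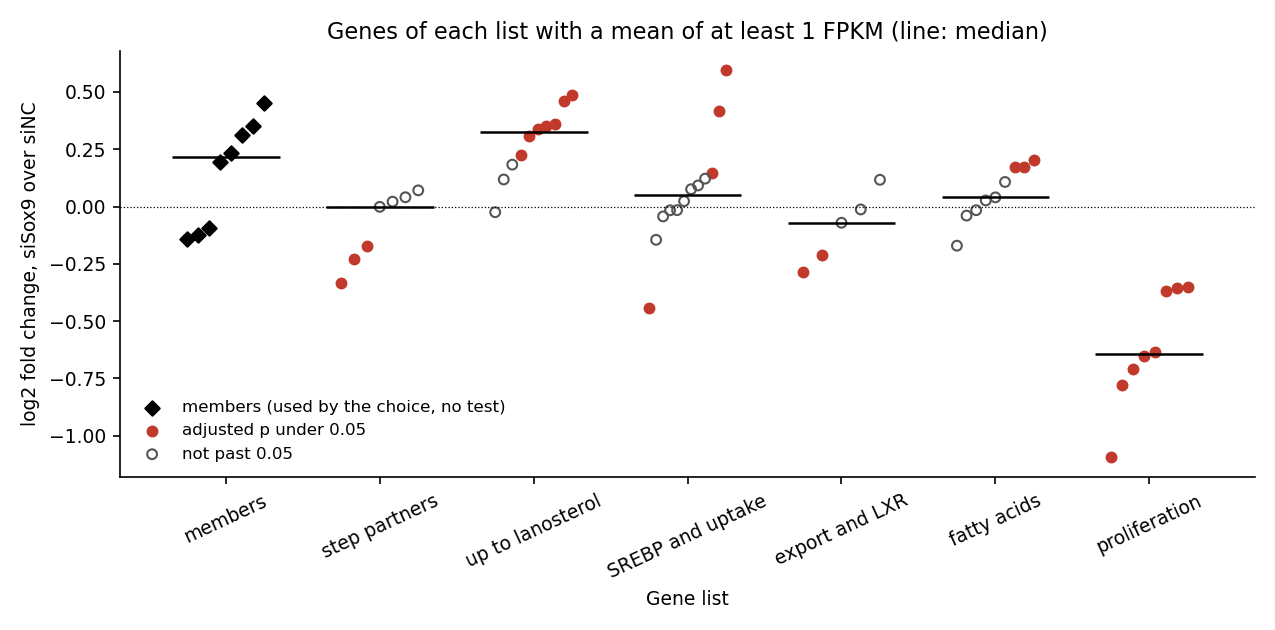
log2 fold change of siSox9 over siNC for the genes of each list with a mean of at least 1 FPKM, filled where limma's adjusted p was under 0.05, with a line for the median. The members are drawn as diamonds without a call, and the medians lie at 0.22 for the members, 0.32 for the enzymes up to lanosterol and -0.64 for the proliferation markers.

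Other measures moved with the groups beside the sterol genes, where 12.8% of all genes tested rose and 17.6% fell. All 8 proliferation markers fell, from -0.35 for Tyms to -1.09 for Rrm2 on the log2 scale (limma's adjusted p = 0.00575 and 6.03e-05), and Mki67, a marker of cycling cells, had 6.90 ± 0.254 FPKM against 12.5 ± 0.501 (SD, n = 3, limma's adjusted p = 8.27e-05). Their median log2 fold change was -0.64, and their summed level 97.9 to 108.2 FPKM with siSox9 and 160.0 to 166.9 FPKM with siNC. Of the macrophage markers, 5 of 6 were tested and 1, Lyz2, rose (83.4 ± 3.91 against 71.9 ± 3.78 FPKM, SD, n = 3, limma's adjusted p = 0.0175), with a summed level of 138.2 to 154.9 FPKM with siSox9 and 135.4 to 138.6 with siNC. Lyz2 did not pass without filter (limma's adjusted p = 0.0575), and C1qa, which had the lowest fold change of that list, had 38.1 ± 3.19 against 42.0 ± 3.79 FPKM (limma's adjusted p = 0.228). The summed fibroblast markers were 6.45 to 7.95 FPKM against 7.99 to 9.09, with 1 of 6 tested (Col1a1) and 0 passing, and the endothelial markers were 2.91 to 3.10 against 3.22 to 4.12 FPKM, with 1 of 5 tested (Cdh5) and 0 passing. Of the 6 epithelial markers 1, Cdh16, rose (log2 fold change 0.36, limma's adjusted p = 0.000307), Pax8 had 14.4 ± 0.423 against 15.3 ± 0.770 FPKM (limma's adjusted p = 0.189), and the list's summed level was 3755 to 3913 FPKM against 3592 to 3794. The part of any of these in the sterol gene values was not tested.

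Within a group no library was the highest or the lowest for all members. Deviations from the group mean on the log2(FPKM + 1) scale stayed between -0.07 and 0.06. Among the siSox9 libraries, replicate 3 was the highest for 4 members and the lowest for 0, while replicate 2 was the lowest for 5 and replicate 1 for 3. Among the siNC libraries replicates 2 and 3 were the highest for 3 each and replicate 1 for 2, and each was the lowest for 2 or 3. Averaged over the 8 members, the libraries deviated by -0.01 to 0.01. From the lowest to the highest library, Dhcr7 had the widest spread with siNC, 0.12 on this scale, and Nsdhl in the siSox9 libraries, 0.11. The narrowest was that of Cyp51 in the siSox9 libraries, 0.02.

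**Figure D5:**
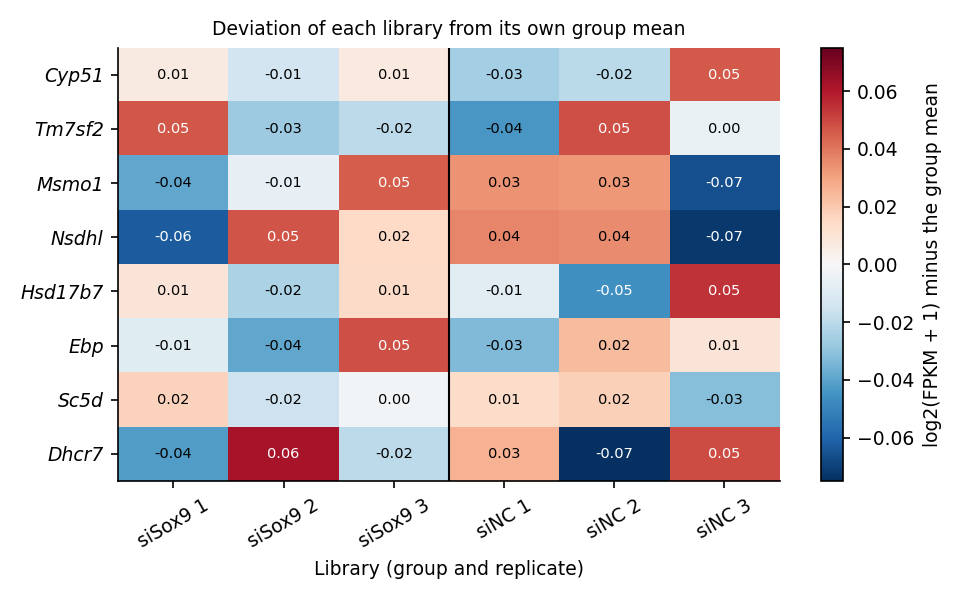
Difference of each library from the mean of its own group on log2(FPKM + 1) for the 8 members, by group and replicate number. No library is high or low for all members, and the values lie between -0.07 and 0.06.

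The genes whose log2 values followed the mean of the 8 members most closely over the 6 libraries were A730020M07Rik, Becn1, Cav1, 9930111J21Rik1 and Ctxn1, with Pearson's r of 0.9985, 0.9983, 0.9976, 0.9975 and 0.9975. In all, 617 of 11997 genes compared (5.14%) had r of at least 0.95. With the group means removed, the closest were Llph-ps2, Gosr2, Fam32a, Trit1 and Ankrd26, with r of 0.9966, 0.9949, 0.9947, 0.9939 and 0.9915. None of these 10 genes is on the lists of the sterol pathway, and the points share the same 6 libraries. Within the groups the mean of the members deviated by only -0.01 to 0.01. These r values are the highest out of 11997 genes over 6 libraries and are high by that selection. Shared regulation was not tested and is not read from them.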

How the data were processed

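FPKM per gene and library was deposited by the authors, with no pooling of replicates. The submitters' processing notes name Bowtie2 2.2.3, HISAT2 2.1.0, TopHat2 and the build mm9 without their roles, while 93.3% of the 30246 genes found in GENCODE M21 have the same position there, in GRCm38. The counter, the library kit and its strand setting are not given in the sources used here. The table's columns carry the siRNA and the replicate number, and siSox9 is the siRNA of the labels other than siNC. Faxdc2 and Slc22a6 were not analysed here, and some genes of the pathway lists are not reported here, so that the counts of those lists are without them.

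Genes were kept at a mean FPKM of 1 or more over the libraries (12009), and differences on log2(FPKM + 1) were fitted with limma 3.58.1 in R 4.3.3 (lmFit, eBayes with a trend), at a Benjamini-Hochberg adjusted p under 0.05 and without a replicate block. Fold changes on this scale understate those of low genes. Given GENCODE M21 exon lengths, FPKM converted back to whole reads (within 0.02) in all 6 libraries for 27948 genes. At these depths 3 reads on 1 kb of exons are 0.117 to 0.126 FPKM, which covers counting error only. Libraries of a group differed by a mean chi-square per gene of 1.90 to 6.90, where sampling noise gives about 1. The highest values were those of siNC replicate 1 against siNC replicates 2 (6.60) and 3 (6.90). Replicates 2 and 3 of siNC differed by 2.67, and the siSox9 libraries by 1.90 to 3.91. The fit was tested on simulated reads for siSox9 against siNC over 10770 genes: 50 of 50 and 45 of 45 genes raised or lowered by 1 on the log2 scale were called in the right direction, 26 of 50 and 21 of 48 of those changed by 0.4, and 12 of 10577 unchanged genes. The simulation changed 200 genes and gave all genes the same fixed dispersion, without effects of single libraries. Its rates therefore need not hold for the real libraries, where 30.4% of genes were called. Motifs were searched in the 250 bases before each RefSeq start site. The members, lists and motifs were chosen with earlier results of these data known. Named genes are Sox9, the members, Lbr, Erg28, Ebpl, Lss, Srebf2, Insig1, Abca1 and Mki67, the largest and smallest fold change of each list, and the 5 genes most like the members by each measure. Cyb5a, Cyb5b, Por, Pmvk, Stard4, Npc2, Soat1, Fasn, Me1 and some markers were named after their values were seen. The alternatives were changes of the pseudocount to 0.1, the filter to none or to 5 FPKM, the scaling to TPM, to a common median or to quantile normalization, the model to one with the replicate block, or without the trend, and the samples by leaving out each library, each made singly. Limma voom on recovered reads changed the input, the scale and the genes tested (10479) together. Other steps used Python 3.11.15 with numpy 2.4.6, pandas 2.3.3 and matplotlib 3.10.9.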

Additional observations from a re-analysis of the deposited data

How the results depend on the processing

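The 8 members kept the direction of their differences under all alternatives that gave a value; Tm7sf2 and Dhcr7 lacked 1 each (limma voom and the minimum of 5 FPKM). The members were chosen with the difference between siSox9 and siNC in view, so their directions and calls are a description and no test. The members past the threshold as higher were 4 to 5. Members lower were 0 with TPM, 0 with median-centred values and 0 with limma voom on recovered reads, and 0 to 1 without each replicate. Genes lower over the table were 1376 with a minimum of 5 FPKM, which tests fewer genes, and 1342 with TPM, and 1488 to 2089 without each replicate. Genes higher were 943 to 1564 without each replicate, lowest without siSox9 replicate 2. In either direction 3653 genes passed without siNC replicate 1, and 2431 to 2847 without any other library. Npc1 had no recovered reads, so the SREBP list had 0 lower with limma voom. The export list had 1 higher with a minimum of 5 FPKM, 1 with median-centred values, 1 with limma voom and 0 to 1 without each replicate. It had 0 lower with no filter, 0 with a minimum of 5 FPKM, 0 with TPM, 0 with quantile normalization and 0 to 2 without each replicate, and the cause was not tested. The fatty acid list had 0 to 1 lower without each replicate, with 1 without siNC replicate 2.

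With the replicate block, 3262 genes passed (1373 higher and 1889 lower) against 3650, and 5 members were higher and 1 lower. Deviations of same-numbered libraries correlated at 0.06, -0.05 and 0.01, and not every sample correlated best with its own number. No shared effect of the replicate number was thus seen, but whether samples were prepared as pairs cannot be told from this. Under the alternatives 560 values were compared, for single genes and for the members' median. Of these, 528 stayed on their side of the threshold or within the spread of replicates. A further 21 lost and 7 gained significance, 4 moved and 0 reversed. For genes other than the members, a change of sign counted as reversed only if the main fit or the alternative passed the threshold. Acat2 (-0.07 to 0.04) and Por (-0.03 to 0.09) passed in neither and changed sign under some alternatives. The scalings moved the median log2 fold change of all genes from -0.01 to at most 0.01. Depth limits the low genes, such as those of the export list under 1 FPKM.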
